A study of Homo sapiens with 3 samples.

Results

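The subject is the comparison of PC3-Luc cells carrying the hairpin named sh720, 1 of 2 short hairpins against CTHRC1 in the series, with PC3-Luc cells carrying a control hairpin. It rests on 6 of 9 RNA sequencing libraries, 3 per line, and on the 9591 genes, of 21726 listed, whose counts summed to 40 or more over these 6 libraries. PC3 is a human prostate adenocarcinoma cell line that grows without androgen. Per the labels, all lines were PC-3-Luc cells that had received pMSCV-luc, a vector with a luciferase gene, so the control shares that gene and a hairpin with the knockdown lines. The other knockdown line, sh718, is used below to show where the sh720 line differs. Its libraries also entered the fit behind the p-values and their shared estimate of the spread. Cells were kept for 24 hours in 6-well plates before total RNA was taken. The labels do not describe the hairpin sequences, their vector or whether a line is a single clone, and they do not say whether the libraries of each line stem from different cultures. The p-values thus reflect library-to-library spread alone, part or all of which may be technical.

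CTHRC1 is a secreted glycoprotein of the extracellular matrix, known for promoting cell migration and for modulating Wnt signalling through the planar polarity branch. Several of the gene groups described below belong to stress programmes. In the integrated stress response, kinases that sense amino acid shortage, unfolded protein or other stress slow general translation and raise translation of the transcription factor ATF4, which switches on genes of amino acid uptake and synthesis. The unfolded protein response and the heat shock response raise chaperones of the endoplasmic reticulum (ER) and the cytosol, and the SREBP pathway raises sterol synthesis and uptake when membrane sterol is low.

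Totals of the control and sh720 libraries ran from 897752 to 1108960 counts, with 14612 to 15162 genes detected in each. Mitochondrial genome transcripts took 12% to 16.4% of the counts, the lowest share being that of sh720 library 3. Levels are given as CPM (counts scaled to a common library size) after TMM scaling, and changes as log2 values of sh720 minus control with their standard error (SE). A gene was called where the adjusted p of edgeR's quasi-likelihood test was under 0.05. All 6 markers that PC3 cells should hold were tested, with VIM, KRT8 and KRT18 higher in sh720, CAV1 lower, and EPCAM and CD44 not called. No marker of fibroblasts and osteoblasts reached 40 counts (0 of 7), and 1 of 7 leukocyte and endothelial markers did so, PECAM1, with 69 counts in control and 59 in sh720. None of the 2 tested neuroendocrine and 5 tested luminal prostate markers was called. Over all tested genes 6.86% were called, so an absence of calls among so few markers says little.

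Of the 9591 genes, 658 were called between sh720 and control (6.86%), 323 higher in sh720 (3.37%) and 335 lower (3.49%). Most changes were modest: the median size was 0.605 on the log2 scale among the higher genes and 0.567 among the lower ones. At 2-fold or more, 72 genes were higher (0.751%) and 50 lower (0.521%). Among 147 pseudogenes 8 were higher and 11 lower, among 289 long non-coding RNAs 11 and 7, and among 9140 protein-coding genes 303 and 316. The median change of all tested genes was -0.00445. With library totals in place of TMM factors the calls became 430 higher and 255 lower, so higher genes made up 62.8% of the calls and not 49.1%, and the median of all genes was 0.0479. DESeq2 called 129 higher and 176 lower.

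**Figure D1:**
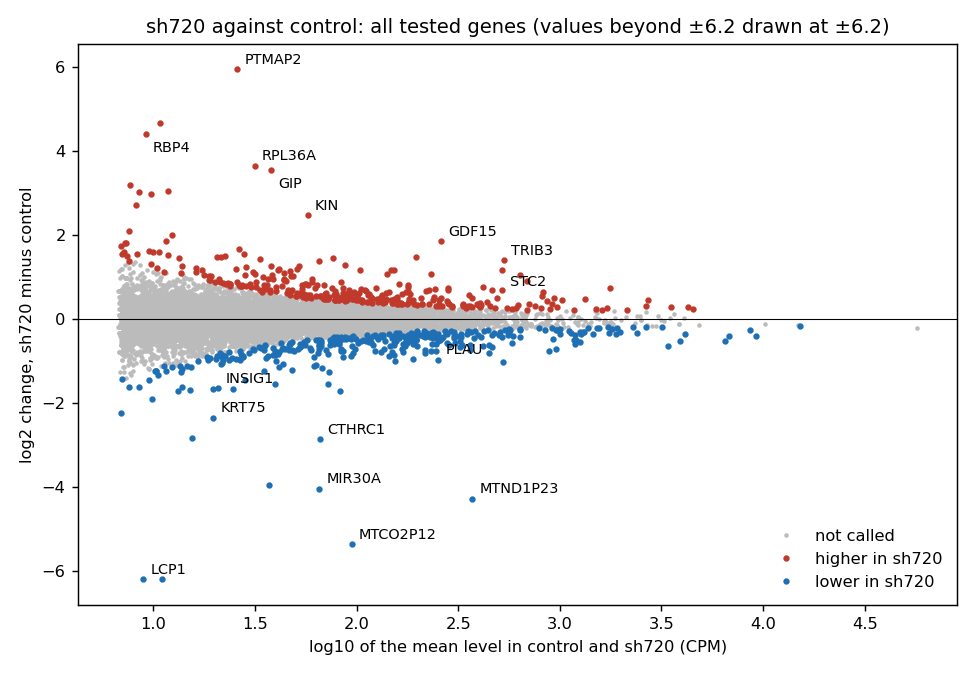
Each point is 1 of the 9591 tested genes, placed by the log10 of its mean level over the control and sh720 means (horizontal, CPM) and its log2 change, sh720 minus control (vertical). Red points were called higher and blue points lower in sh720; CTHRC1 lies at -2.87 and GIP at 3.54, while LCP1 and AC018868.1, without a count in sh720, are drawn at the lower edge.

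CTHRC1 lies on the plus strand of chromosome 8 (GRCh38, 103371515 to 103382997, ENSG00000164932). Its level checks the label. It stood at 99.2, 132 and 117 CPM in the control libraries and at 18.4, 19.6 and 9.69 in sh720. Every sh720 library lay far below the lowest control library. The log2 change was -2.87 (SE 0.19, adjusted p 4.94e-19). The sums were 331 counts in control and 47 in sh720, so sh720 kept 13.6% of the control level (exact 95% interval 9.81% to 18.5%, counting error only). The sh720 line held more CTHRC1 than sh718, by a log2 difference of 3.04 (adjusted p 3.31e-06).

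**Figure D2:**
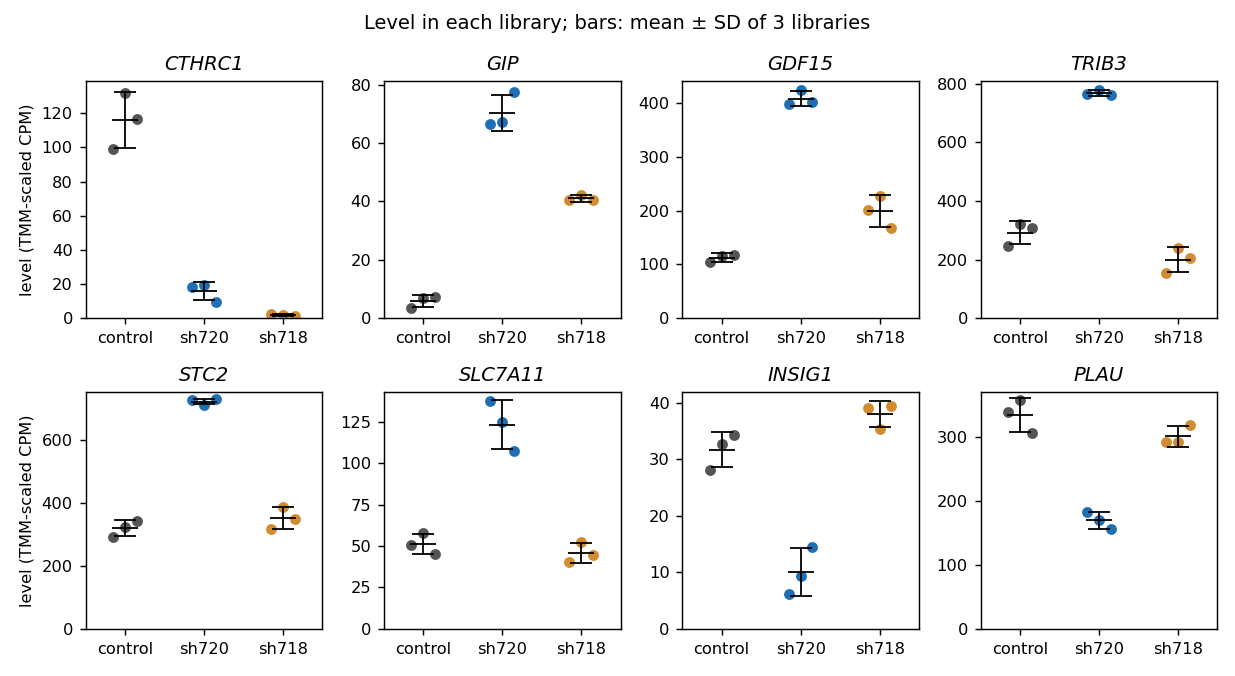
Each panel gives the level of 1 gene (TMM-scaled CPM, axis from 0) in the 3 libraries of the control, sh720 and sh718 lines, with bars for the mean ± SD. TRIB3, STC2, SLC7A11 and GDF15 lie highest in sh720 (TRIB3 at 762 to 779 CPM), INSIG1 and PLAU lie lowest there, and CTHRC1 lies between control and sh718.

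Targets of ATF4 were the group with the most members higher in sh720. Of 34 tested members 21 were higher and 0 lower, with a median change of 0.56, against 3.37% higher and a median of -0.00445 over all tested genes. GDF15, a stress-induced hormone that lowers appetite, led them. Its level was 104, 116 and 118 CPM in control and 398, 425 and 402 in sh720, so the groups were far apart. The log2 change was 1.85 (SE 0.10, adjusted p 6.21e-23).

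TRIB3 (ENSG00000101255, chromosome 20, 362835 to 397559, plus strand), a stress-induced pseudokinase that also restrains ATF4, stood at 247, 322 and 307 CPM in control and 766, 779 and 762 in sh720. The sh720 libraries lay close together (769 ± 8.81 CPM, SD, n = 3) and clear of control (292 ± 39.6). The log2 change was 1.39 (SE 0.09, adjusted p 2.89e-20). STC2 (ENSG00000113739, chromosome 5, 173314713 to 173329503, minus strand), a secreted glycoprotein hormone, stood at 292, 325 and 343 CPM in control and at 727, 713 and 730 in sh720. Its groups were likewise apart, with a log2 change of 1.17 (SE 0.08, adjusted p 3.45e-19).

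The transcription factor genes of the response were mixed. ATF4 itself lay at 229, 213 and 214 CPM in control and 265, 225 and 290 in sh720, overlapping, with a log2 change of 0.25 (adjusted p 0.126). DDIT3, which encodes the cell death factor CHOP, lay at 0.44 (adjusted p 0.159), ATF3 at -0.12 and ATF5 at -0.00. The partner factors of ATF4 were called: CEBPB went from 186 ± 5.09 to 301 ± 4.19 CPM (SD, n = 3, log2 0.70, SE 0.10, adjusted p 7.54e-08) and CEBPG from 81.6 ± 7.44 to 120 ± 1.98 (log2 0.56, adjusted p 0.00232). SESN2, an inhibitor of mTORC1, rose by 0.94 and DDIT4, another such inhibitor, by 0.74. PCK2, the mitochondrial enzyme that makes phosphoenolpyruvate, rose by 1.1. CHAC1, which degrades glutathione, stayed at 0.02 (adjusted p 0.975). The genes of this paragraph were picked after their values were seen.

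Of 12 tested amino acid transporters 7 were higher and 0 lower (median 0.65, 58.3% called against 6.86% of all tested genes). All 7 are also among the 21 higher genes of the ATF4 list, so the lists are not independent. SLC7A11, the cystine carrier of system xc-, lay at 50.7, 57.5 and 45.3 CPM in control and 137, 125 and 108 in sh720. The lowest sh720 library was well above the highest control library, and the log2 change was 1.27 (SE 0.14, adjusted p 3.69e-10). Its partner subunit SLC3A2 went from 169 ± 22.6 to 269 ± 11.9 CPM (log2 0.67, adjusted p 1.53e-06), and SLC7A5, the leucine carrier that uses the same partner, from 139 ± 2.80 to 219 ± 8.70 (log2 0.65, adjusted p 7.29e-06). The neutral carrier SLC1A4 was called at 0.78 (adjusted p 0.028). That call was lost without control library 1 or 3 or sh720 library 1 or 3 (adjusted p up to 0.191). SLC38A1, a glutamine carrier of the same list, lay at 0.01.

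Serine and one-carbon enzymes were higher in 5 of 11 tested cases (45.5%, 3.37% over all genes), with 0 lower (median 0.36). Of these 5 genes 4 are also among the higher ATF4 list members. MTHFD2, the mitochondrial folate enzyme, stood at 218, 218 and 198 CPM in control and 319, 383 and 350 in sh720, with no overlap (log2 0.74, SE 0.09, adjusted p 1.32e-08). PSPH, the last step of serine synthesis, rose by 0.62 (adjusted p 0.000859). PHGDH, the first step, was called at 0.41 and lost the call without control library 1 or 2 (adjusted p up to 0.0968). PSAT1, the step between them, was not called at -0.18 (adjusted p 0.481). The count of 5 fell to 3 with DESeq2, with no count minimum, without control library 3 or without sh720 library 3, and to 2 without control library 1.

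Of 20 cytosolic aminoacyl-tRNA synthetases, which load tRNAs with amino acids, 5 were higher and 1 lower (median 0.11). That made 30% called, against 6.86% of all tested genes, and 2 of the 5 are ATF4 list members as well. CARS1, for cysteine, stood at 124, 139 and 136 CPM in control and 210, 242 and 222 in sh720, without overlap, a log2 change of 0.76 (SE 0.11, adjusted p 1.63e-07). GARS1, for glycine, rose by 0.69, AARS1, for alanine, by 0.50 and YARS1, for tyrosine, by 0.47. QARS1, for glutamine, was lower at -0.43 and lies in the chromosome 3 stretch described below. Its call was lost without control library 1 or 2 or sh720 library 2 (adjusted p up to 0.07) and was missed by DESeq2 (adjusted p 0.071).

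Promoters of the ATF4 list were searched for TGATGNAA on both strands, a form of the element that ATF4 and a C/EBP partner bind. Windows of 250 bases before the RefSeq start (GRCh38.p14) were available for 7670 tested genes, and 2.26% held it. In the ATF4 list 4 of 30 did (13.3%), 2 of the 18 higher members with a window and 2 of the 12 members not called. The higher members holding it were the glutamine carrier gene SLC1A5 (log2 0.59) at chr19:46784884-46784931, minus strand, and CEBPG at chr19:33374051-33374098, plus strand. Both are shown to make the match visible, written 5′ to 3′ on the gene's strand with the match in capitals.
SLC1A5: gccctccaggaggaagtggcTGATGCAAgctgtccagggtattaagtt
CEBPG: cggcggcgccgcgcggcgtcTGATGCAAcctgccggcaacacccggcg
Each window shown held 1 match, and the matched letters of the pair were identical.

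Of 26 tested ER chaperones and unfolded protein response genes 1 was higher and 6 lower (median -0.17, 26.9% called, 6.86% over all genes). Without control library 3 the lower count was 4. HSP90B1, the ER form of HSP90, went from 1397 to 990 CPM (log2 -0.50, SE 0.07, adjusted p 4.5e-08). CALR, a lectin chaperone that binds calcium, stood at 441, 336 and 371 CPM in control and 317, 225 and 248 in sh720. Both groups were wide, but the highest sh720 library lay below the lowest control library (log2 -0.54, SE 0.10, adjusted p 3.03e-05). HSPA5, the master chaperone BiP, chosen after its value was seen, fell by 0.38 on the log2 scale (adjusted p 0.000132). MANF, a secreted ER stress factor in the chromosome 3 stretch, fell from 250 ± 12 to 129 ± 7.57 CPM (log2 -0.95, adjusted p 1.58e-10). SDF2L1, an ER chaperone cofactor, was called at -0.44 and lost the call without any one of the control or sh720 libraries (adjusted p up to 0.23). The member that was higher was XBP1, a transcription factor of the response, at 0.44, a call lost without sh720 library 1 (adjusted p 0.0703) and missed by DESeq2 (adjusted p 0.0619).

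The ER stress element was searched as CCAAT and CCACG spaced by 9 free bases, on both strands of the same windows. It was in 0.169% of all windows and in 7 of 24 of the list (29.2%), among them 3 of the 6 lower members and XBP1. The 3 lower members and XBP1 are printed, since genes with the same element were called in opposite directions. The spans are chr19:12938364-12938422 for CALR (plus strand), chr12:103930196-103930254 for HSP90B1 (plus), chr9:125241371-125241429 for HSPA5 (minus) and chr22:28800583-28800641 for XBP1 (minus), with the match in capitals.
CALR: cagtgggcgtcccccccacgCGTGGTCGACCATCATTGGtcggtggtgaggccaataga
HSP90B1: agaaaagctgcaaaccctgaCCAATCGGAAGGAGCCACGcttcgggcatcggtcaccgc
HSPA5: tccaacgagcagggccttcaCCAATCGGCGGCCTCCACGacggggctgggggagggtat
XBP1: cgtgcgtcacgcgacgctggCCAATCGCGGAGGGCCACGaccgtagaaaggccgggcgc
CALR carries the match on the opposite strand, the others on the strand of the gene, and HSP90B1 has 2 matches, of which 1 is shown.

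The list of heat shock chaperones and their partners also holds the mitochondrial HSPD1 and HSPE1. In it 9 of 21 tested members were lower, HSPD1 among them, and 0 higher (median -0.22). Over all tested genes 3.49% were lower, against 42.9% here. HSPA8, the constitutive HSP70, stood at 445, 377 and 385 CPM in control and 280, 253 and 246 in sh720, well apart (log2 -0.63, SE 0.09, adjusted p 7.29e-08). DNAJA1, an HSP40 cochaperone, fell from 170 ± 11.2 to 103 ± 19.4 CPM (log2 -0.72, adjusted p 1.04e-05). HSP90AA1, the inducible HSP90, fell by 0.37 (adjusted p 7.65e-07). The inducible HSP70 genes HSPA1A and HSPA1B were called at -0.61 and -0.91, but they are near-identical copies whose reads may have been split, and neither call held throughout. HSPA1A lost it without control library 2 or sh720 library 1 or 3 (adjusted p up to 0.169), and HSPA1B without control library 1 or 3 or sh720 library 3 (adjusted p up to 0.163). DNAJB1, an inducible HSP40, lay at -0.18 (adjusted p 0.499). The count of 9 fell to 5 without control library 1 or sh720 library 3 and to 4 with DESeq2. Immediate early genes respond to handling as well as to growth factors. Of their 11 tested members 0 were called (median -0.08), against 6.86% of all tested genes. The part of handling in the chaperone result was not tested.

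Heat shock elements, searched on both strands as GAA, TTC and GAA with 2 free bases between neighbours, were in 0.43% of all windows and in 5 of 19 of the list (26.3%), 4 of them among the 9 lower members. These 4 are printed with the match in capitals: HSPA8 at chr11:123062334-123062386 (minus strand), HSP90AA1 at chr14:102087100-102087152 (minus), HSP90AB1 at chr6:44247758-44247810 (plus) and the mitochondrial chaperonin gene HSPD1 at chr2:197500048-197500090 (minus).
HSPA8: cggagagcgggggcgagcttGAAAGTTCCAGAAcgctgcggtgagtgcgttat
HSP90AA1: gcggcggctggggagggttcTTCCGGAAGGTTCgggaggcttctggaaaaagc
HSP90AB1: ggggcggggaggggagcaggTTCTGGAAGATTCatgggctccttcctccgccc
HSPD1: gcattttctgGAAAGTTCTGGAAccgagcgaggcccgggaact
HSP90AA1 and HSP90AB1 show the match of the opposite strand. The calls of HSP90AB1 and HSPD1 were both at -0.22 and were missed by DESeq2 (adjusted p 0.133 and 0.0892). HSP90AB1 lost its call without control library 1 or 3 or sh720 library 1 or 2 (adjusted p up to 0.316), and HSPD1 without any one of the 6 libraries (adjusted p up to 0.17). HSPA8, HSP90AB1 and HSPD1 each had 2 matches, of which 1 is in capitals. In HSPD1 the other match lies on the opposite strand, overlaps the one in capitals and is not marked. In the windows of the list members, no matches of different motifs overlapped.

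Of 23 tested members of the cholesterol and SREBP list 0 were higher and 5 lower (21.7% called, 6.86% over all genes). The median was -0.44, and 21 had a change below 0. INSIG1, which holds SREBP in the ER when sterol is ample, stood at 28.2, 32.7 and 34.2 CPM in control and 6.14, 9.28 and 14.5 in sh720. The highest sh720 library was below the lowest control library (log2 -1.65, SE 0.29, adjusted p 2.17e-05).

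Among the calls were 3 enzymes of the pathway. IDI1 was called at -0.77 (lost without control library 2 or 3 or sh720 library 1, adjusted p up to 0.127), SQLE at -0.53 (lost without sh720 library 2, adjusted p 0.0701) and DHCR7 at -0.53 (lost without control library 2 or 3 or sh720 library 2 or 3, adjusted p up to 0.228). The transcription factor genes SREBF1 and SREBF2 lay at 0.14 and -0.31, neither of them called. The count of 5 fell to 3 without control library 2 or 3 or sh720 library 2, and to 2 with DESeq2. DESeq2 gave INSIG1 no adjusted p, so that gene left the count without a failed test. A sterol element searched as TCACNCCAC was in 1.17% of all windows, in 1 of 18 of the list and in 0 of the 3 lower members with a window.

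**Figure D3:**
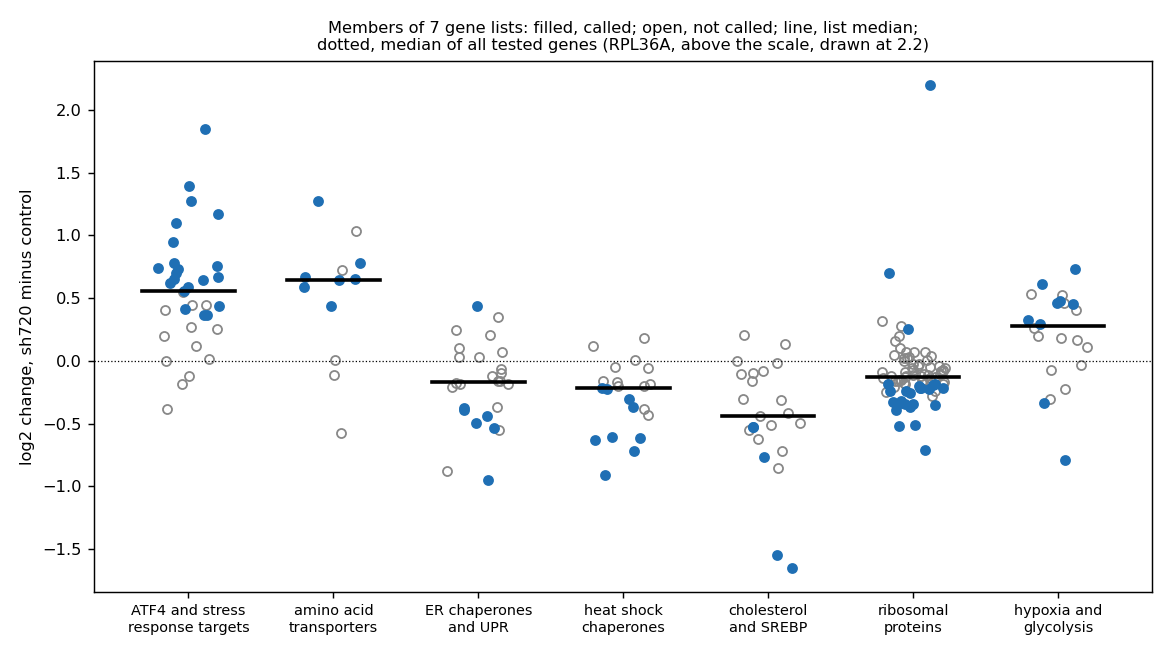
Each point is a tested member of 1 of 7 gene lists, with its log2 change, sh720 minus control, on the vertical axis, filled where called and open where not; thick lines are list medians and the dotted line is the median of all tested genes. The ATF4 and transporter lists, which share members, have medians of 0.56 and 0.65, and the cholesterol list has one of -0.44.

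Of 19 tested secreted peptides and hormones 6 were higher and 4 lower (median 0.20, 52.6% called, 6.86% over all genes). GIP (ENSG00000159224, chromosome 17, 48958554 to 48968596, minus strand), an incretin hormone normally made by the gut, stood at 3.38, 6.77 and 7.40 CPM in control and 66.6, 67.0 and 77.5 in sh720. The groups were far apart, with a log2 change of 3.54 (SE 0.26, adjusted p 2.79e-17). The trefoil peptide genes TFF1 and TFF2, neighbours on chromosome 21 whose products protect mucosa, rose by 1.05 (SE 0.07, adjusted p 5.62e-19) and 1.08 (SE 0.10, adjusted p 2.63e-13). TFF1 stood at 398, 450 and 399 CPM in control and 881, 880 and 818 in sh720. GAL, the neuropeptide galanin, stood at 3.38, 4.51 and 6.47 CPM in control and 24.6, 15.5 and 19.4 in sh720, without overlap (log2 1.99, adjusted p 0.00013). It had 59 counts in sh720 and 0 in sh718, at least 18.3-fold higher against a floor of 3 counts over the line.

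Among the lower peptides, FGFBP1, a carrier that frees FGF from matrix, stood at 51.8, 45.1 and 28.7 CPM in control and 15.4, 15.5 and 13.6 in sh720. The control libraries spread widely, and all lay above sh720 (log2 -1.47, SE 0.25, adjusted p 2.11e-05). MDK, a heparin-binding growth factor, fell from 112 ± 23.7 to 58.8 ± 0.629 CPM (log2 -0.92, adjusted p 5.15e-06). INHBA, the activin A subunit, fell from 121 ± 14.8 to 65.8 ± 8.45 (log2 -0.89, adjusted p 2.32e-06), and IGFBP4, a binding protein of insulin-like growth factors, by 0.31 on the log2 scale (adjusted p 0.00034).

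Plasminogen activation, the conversion of plasminogen to the protease plasmin, has 2 activators, and they moved apart. PLAU (ENSG00000122861, chromosome 10, 73909177 to 73917497, plus strand), which encodes urokinase, stood at 339, 358 and 306 CPM in control and 183, 170 and 156 in sh720. No library overlapped, and the log2 change was -0.97 (SE 0.09, adjusted p 2.11e-12). PLAT, which encodes tissue plasminogen activator, stood at 353, 359 and 354 CPM in control and 541, 571 and 603 in sh720 (log2 0.69, SE 0.08, adjusted p 3.02e-10). The urokinase receptor gene PLAUR lay at -0.03 (adjusted p 0.963). SERPINE2, an inhibitor of the activators, was called at 0.53 and lost the call without sh720 library 3 (adjusted p 0.0978). The plasminogen-binding pair ANXA2 and S100A10 lay at 0.26 and 0.23, the latter lost without control library 2 or 3 or sh720 library 1 (adjusted p up to 0.106). In all, 4 of 11 tested members were higher and 1, PLAU, lower (45.5% called, 6.86% over all genes).

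A further list covers metalloproteinases, their TIMP inhibitors, ADAMs and related proteases. Of its 12 tested members 3 were higher and 1 lower (33.3% called, 6.86% over all genes). MMP1, the interstitial collagenase, stood at 21.4, 9.03 and 12 CPM in control and 50.2, 41.2 and 32.9 in sh720. MMP13, another collagenase, stood at 10.1, 15.8 and 12 in control and 41.0, 47.4 and 32 in sh720. Neither overlapped, with log2 changes of 1.55 (SE 0.26, adjusted p 1.21e-05) and 1.65 (SE 0.27, adjusted p 5.54e-06). DESeq2 gave neither an adjusted p. CTSD, a lysosomal protease, rose by 0.44 (adjusted p 0.00244). ADAM19, a membrane protease, was called at -0.43, and the call was lost without control library 1 or 2, sh720 library 1 or 2, or sh718 library 3 (adjusted p up to 0.241).

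Of 22 tested collagens and matrix proteins 1 was higher and 4 lower (median -0.14, 22.7% called, 6.86% over all genes). COL13A1, a transmembrane collagen in the chromosome 10 stretch, stood at 212, 190 and 166 CPM in control and 113, 83.5 and 131 in sh720, apart in all libraries (log2 -0.78, SE 0.12, adjusted p 2.52e-06). LAMB3, a laminin chain of basement membrane, fell by 0.54 (adjusted p 0.000889), and FN1, fibronectin, was called at -0.75, lost without control library 3 (adjusted p 0.066). CCN2, a matricellular protein and YAP target, was called at -0.72, lost without control library 1 or sh720 library 3 (adjusted p up to 0.0932). COL6A1 was the higher one, at 0.51 (adjusted p 9.19e-07). DESeq2 called 2 of the 4 lower members.

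Of 22 tested integrin and focal adhesion genes 1 was higher and 5 lower (median -0.20, 27.3% called, 6.86% over all genes). VCL, which encodes the adhesion adaptor vinculin and lies in the chromosome 10 stretch, stood at 576, 578 and 552 CPM in control and 304, 341 and 330 in sh720 (log2 -0.80, SE 0.08, adjusted p 1.65e-12). ITGA1, a collagen-binding integrin chain, fell from 103 ± 11.7 to 63.4 ± 2.52 CPM (log2 -0.71, adjusted p 0.00018). Its neighbour on chromosome 5, ITGA2, was called at -0.45 and lost the call without control library 3 or sh720 library 1 (adjusted p up to 0.0688). ITGB4, the laminin-binding chain of hemidesmosomes, was called higher at 0.35, lost without control library 2 or 3 or sh720 library 2 or 3 (adjusted p up to 0.129). Without control library 3 or sh720 library 1 the count of lower members was 3.

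Epithelial and mesenchymal markers moved in both directions. KRT7, a simple-epithelium keratin, stood at 327, 309 and 301 CPM in control and 512, 567 and 493 in sh720, without overlap (log2 0.75, SE 0.08, adjusted p 3.02e-10). KRT8 was called at 0.45 and KRT18 at 0.22, calls lost without control library 3 (adjusted p up to 0.0638 for KRT8) and, for KRT18, also without control library 1 or sh720 library 1 or 2 (up to 0.196). CLDN4, a tight junction claudin, was called lower at -0.41, lost without control library 1 or sh720 library 3 (adjusted p up to 0.0809). The mesenchymal filament gene VIM went from 2371 to 2919 CPM (log2 0.30, SE 0.06, adjusted p 0.000127), and NT5E, the ectonucleotidase CD73, rose by 0.62 (adjusted p 0.00108). CDH11, a mesenchymal cadherin, was called at -0.44, lost without control library 3 (adjusted p 0.0503). In all, 4 of 16 tested epithelial genes were higher and 1 lower, and 2 of 11 mesenchymal genes were higher and 2 lower. The shares called were 31.2% and 36.4%, against 6.86% of all tested genes. Without control library 3, 1 epithelial gene was higher and 0 mesenchymal genes were lower, and DESeq2 called 2 epithelial genes higher.

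Of 22 tested genes of hypoxia and glycolysis 7 were higher and 2 lower (median 0.28, 40.9% called, 6.86% over all genes). PGK1, which makes ATP in glycolysis, went from 1318 to 2194 CPM (log2 0.74, SE 0.06, adjusted p 5.63e-16). LDHA, which makes lactate, rose by 0.46 (adjusted p 7.19e-09), PKM, pyruvate kinase, by 0.47 (adjusted p 1.41e-08) and PFKL, a phosphofructokinase, by 0.61 (adjusted p 0.000743). The lower ones both lie in the chromosome 10 stretch: HK1, the hexokinase that opens glycolysis, went from 215 ± 2.72 to 124 ± 6.30 CPM (log2 -0.79, adjusted p 4.5e-08), and P4HA1, a collagen prolyl hydroxylase, was called at -0.33, lost without any control library or sh720 library 2 or 3 (adjusted p up to 0.156). The glucose carrier gene SLC2A1 lay at -0.23 and VEGFA at 0.20, neither called. The list median was higher still in sh718 against control, at 0.48. Against sh718, 3 members were higher and 7 lower in sh720 (median -0.19), and 1 was higher than in both lines. Over all tested genes 12.8% were higher than in sh718, 12.2% lower, and 2.07% higher than in both lines.

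Of 20 tested genes of NRF2 and redox defence 4 were higher and 3 lower (median 0.05, 35% called, 6.86% over all genes). TXNRD1, thioredoxin reductase, went from 645 ± 73.0 to 1007 CPM (log2 0.64, SE 0.07, adjusted p 1.08e-10), GCLM, a subunit of the glutathione synthesis enzyme, rose by 0.69 (adjusted p 0.000197) and ME1, malic enzyme, by 0.65 (adjusted p 2.91e-05). SLC7A11, described above, was the fourth. The classical NRF2 target NQO1 lay at 0.06 (adjusted p 0.833). The ferritin genes FTL and FTH1 were lower, at -0.37 (adjusted p 1.15e-05) and -0.52, the latter lost without control library 2 or 3 or sh720 library 1 or 3 (adjusted p up to 0.131).

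Lipid and retinoid genes held a few larger changes. SPTLC3, a subunit of serine palmitoyltransferase, which opens sphingolipid synthesis, rose from 31.0 ± 3.07 to 70.2 ± 3.03 CPM (log2 1.18, SE 0.17, adjusted p 4.46e-07), and SPTSSB, its small subunit, by 0.89 (adjusted p 2.45e-06). They were the 2 called members of 16 tested sphingolipid genes, both higher (12.5% called, 6.86% over all genes). SCD5, a stearoyl-CoA desaturase, stood at 12.4, 10.2 and 10.2 CPM in control and 18.4, 40.2 and 32 in sh720, the sh720 libraries spreading widely (log2 1.47, adjusted p 0.000343). FADS2, a polyunsaturated fatty acid desaturase, was called at -0.34, lost without control library 2 or 3 or sh720 library 1 or 3 (adjusted p up to 0.156). In the retinoid list 4 of 10 tested members were higher and 0 lower (40% called, 6.86% over all genes). RXRA, the partner of many nuclear receptors, stood at 13.5, 11.3 and 9.25 CPM in control and 36.9, 26.8 and 31.0 in sh720 (log2 1.48, SE 0.28, adjusted p 0.000113). RDH10, which makes retinal, rose by 0.83 (adjusted p 1.08e-07), and CRABP2, a retinoic acid carrier, was called at 0.72, lost without control library 2 (adjusted p 0.07). RBP4, the retinol carrier of blood, had 2 counts in control and 52 in sh720, a ratio of 24.9 (exact 95% interval 6.56 to 211). DESeq2 gave RBP4 and RXRA no adjusted p and called 2 members.

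Ribosomal protein genes shifted by a small amount. Of 80 tested cytosolic ribosomal protein genes 3 were higher and 23 lower (32.5% called, 6.86% over all genes). The median was -0.13, and 62 had a change below 0. RPS24, in the chromosome 10 stretch, fell by 0.52 (SE 0.05, adjusted p 2.07e-11) and RPL29, in the chromosome 3 stretch, by 0.71 (SE 0.06, adjusted p 1.35e-13). RPL37 fell by 0.51 and RPL7A by 0.39. Many of these genes have processed copies, so their counts are uncertain. With library totals only 14 were lower, without sh720 library 2 the count was 15, and without control library 2 or sh720 library 3 it was 12.

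Mitochondrial genome transcripts, which encode subunits of the respiratory chain, were lower in 7 of 13 tested cases and higher in 0 (median -0.17). That made 53.8% called, against 6.86% of all tested genes. The count of 7 became 5 without sh720 library 3 and 9 without sh720 library 1. In sh718 against control the list median was much the same, at -0.16. MT-ND1, a complex I subunit, stood at 3923, 4042 and 4542 CPM in control and 2862, 2740 and 2401 in sh720, apart in all libraries (log2 -0.65, SE 0.06, adjusted p 4.17e-13). MT-CO1, the catalytic subunit of complex IV, fell by 0.52 (adjusted p 8.75e-07), and MT-ND2 and MT-ATP6 each by 0.40. MT-ND6, on the other strand of the mitochondrial genome, lay at 0.03 (adjusted p 0.862). Of 31 nuclear genes for respiratory chain subunits 3 were lower and 0 higher, among them UQCRC1 (-0.58), which lies in the chromosome 3 stretch. That share, 9.68%, stands near the 6.86% called among all tested genes. Mitochondrial genome counts made up 14.4% to 16.4% of the control libraries and 12% to 15.1% of the sh720 libraries, and the part of that share in these values was not tested.

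CTHRC1 is known for its ties to Wnt signalling. Against 6.86% called among all tested genes, of 20 tested planar polarity and non-canonical Wnt genes 1 was higher and 1 lower (median 0.01). The receptor gene ROR1 stood at 18.0, 20.3 and 19.4 CPM in control and 29.7, 34.0 and 36.8 in sh720 (log2 0.80, adjusted p 0.0314), apart in these libraries, but the call was lost without any control library or sh720 library 2 or 3 (adjusted p up to 0.137). RHOA, a GTPase of the cytoskeleton in the chromosome 3 stretch, fell by 0.43 (adjusted p 3.01e-06). Of 9 tested canonical Wnt genes DKK1, a secreted inhibitor, was called at 0.21, lost without control library 1 or 3 or sh720 library 1 or 2 (adjusted p up to 0.185). Among bone metastasis factors 4 of 10 were higher and 1 lower, the higher ones being MMP1, MMP13, DKK1 and the Notch ligand gene JAG1 (0.44, lost without any control library or sh720 library 1 or 3, adjusted p up to 0.154). That count fell to 2 without control library 1 or 3 or sh720 library 1, and DESeq2 called 0, giving JAG1 an adjusted p of 0.152, DKK1 one of 0.0812 and MMP1 and MMP13 none. The lower one was CCN2, described above.

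Other signalling and cycle lists had between 1 and 4 called members each. The share called was 21.1% for TGF-beta and BMP response genes, 25% for YAP targets and 20% for the inflammatory list. Of 19 TGF-beta and BMP response genes 1 was higher and 3 lower: ID1, an inhibitor of basic helix-loop-helix factors, rose by 0.80 (adjusted p 1.33e-07), while its relative ID2 fell from 93.9 ± 14.3 to 41.2 ± 3.96 CPM (log2 -1.17, adjusted p 1.33e-07), alongside INHBA and the latent TGF-beta binding protein gene LTBP1 (-0.48). Of 16 YAP targets 2 were higher and 2 lower, FJX1 being the lowest at -1.26 (adjusted p 2.03e-09). The higher count there was 1 without control library 2 or sh720 library 1 or 3, the lower count 1 without control library 1 or sh720 library 3, and DESeq2 called 1 in each direction. In the inflammatory list of 10, the chemokine gene CXCL8 rose by 0.82 (adjusted p 0.000347), and IL1B, interleukin-1 beta, stood at 14.7, 22.6 and 10.2 CPM in control and 2.05, 4.12 and 5.81 in sh720 (log2 -1.90, SE 0.43, adjusted p 0.0014). Of 26 G1/S genes 2 were higher, with RRM2, a ribonucleotide reductase subunit, at 0.50, and of 25 mitosis genes 2 were lower, CCNB1 and PTTG1, cyclin B1 and securin, both at -0.61. These shares stand near the 6.86% called among all genes, and the G1/S count was 1 with DESeq2 or without control library 1 or 3 or sh720 library 1 or 2. Of 22 interferon and antigen presentation genes 2 were lower, a count that fell to 0 with DESeq2, with library totals, or without control library 3 or sh720 library 3. Of 21 EGFR and ERK feedback genes 1 was higher, ETV5 at 0.40, a call lost without control library 1 or 2 or sh720 library 1 or 2. The interferon and EGFR lists, at 9.09% and 4.76% called, also stand near 6.86%.

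Among the largest single changes were those of genes outside the lists, several of them with low counts. KIN, a DNA- and RNA-binding nuclear protein, stood at 16.9, 13.5 and 21.3 CPM in control and 95.2, 105 and 92.0 in sh720, far apart (log2 2.47, SE 0.20, adjusted p 1.33e-15). NOX5, an NADPH oxidase, stood at 3.38, 3.38 and 0.925 CPM against 21.5, 19.6 and 22.3 (log2 3.04, adjusted p 1.99e-07), and HCLS1, a cortactin relative of blood cells, went from 2.12 ± 1.15 to 14.4 ± 5.40 (log2 2.71, adjusted p 8.8e-05). LCP1, the actin bundler L-plastin, had 50 counts in control, 44 in sh718 and 0 in sh720, which makes it at least 17.4-fold lower against a floor of 3 counts over the line. KRT75, a hair follicle keratin, fell from 33.1 ± 7.26 to 6.33 ± 2.30 CPM (log2 -2.36, adjusted p 5.11e-08).

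Several processed or nuclear copies of other genes were called. PTMAP2, a processed copy of PTMA, went from 2 counts to 151, a ratio of 72.4 (exact 95% interval 19.7 to 603), while PTMA lay at 0.19 (adjusted p 0.0732). YBX1P6 rose from 1.98 ± 1.48 to 17.5 ± 4.37 CPM (log2 2.98, adjusted p 3.39e-06), and YBX1 lay at 0.02. MTND6P4, a nuclear copy of MT-ND6, went from 2 counts to 62 (ratio 29.7, 7.89 to 251). MTND1P23 (chromosome 1, 629062 to 629433) stood at 729, 712 and 670 CPM in control and 32.8, 35.1 and 39.7 in sh720 (log2 -4.29, SE 0.11, adjusted p 3.73e-41), against -0.65 for MT-ND1. MTCO2P12 (chromosome 1, 632757 to 633438) was at -5.36 (adjusted p 2.23e-30). The ribosomal gene RPL36A stood at 2.25, 6.77 and 4.62 CPM in control and 64.5, 60.8 and 50.4 in sh720 (log2 3.64, SE 0.31, adjusted p 8.64e-15). How reads that fit several copies were placed is unknown here, so the values of all these copies are uncertain.

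MIR30A (ENSG00000207827, GRCh38 chromosome 6, 71403551 to 71403621, minus strand), a microRNA precursor, stood at 118, 114 and 138 CPM in control, at 4.10, 16.5 and 1.94 in sh720 and at 5.93, 3.03 and 5.32 in sh718. Both knockdown lines lay far below control, with a log2 change of -4.05 in sh720 (SE 0.24, adjusted p 2.6e-21) and no call between sh720 and sh718 (adjusted p 0.41). The loop and flanks of the MIR30A hairpin are a common scaffold of hairpin vectors, but the labels do not describe the vector used here. The mature products of MIR30A, from RefSeq (GRCh38.p14), are printed with the seed (bases 2 to 8) in capitals.
hsa-miR-30a-5p: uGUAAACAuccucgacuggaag
hsa-miR-30a-3p: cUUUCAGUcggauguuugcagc
The arms have different seeds. Whether the counts came from the genomic gene or from a vector was not tested, and they do not measure mature microRNA.

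Neighbouring genes moved together on parts of chromosomes 10 and 3. Over 239 windows of 5 Mb with at least 15 tested genes, the median change lay between -0.15 and 0.14 in the middle 90%, 7 windows were below -0.3 and 0 above 0.3. The windows were picked by these medians, so the values that follow are a description. On chromosome 10 from 65000001 to 80000000, 37 of 70 genes were lower and 2 higher, with a median of -0.48. These 37 genes were 11% of all lower genes. On chromosome 3 from 45000001 to 60000000, 29 of 118 genes were lower and 0 higher, with a median of -0.36, or 8.66% of all lower genes. Another window, on chromosome 1 from 230000001 to 235000000, held 20 genes with a median of -0.37, of which 4 were lower. The shares called lower were 52.9% on chromosome 10, 24.6% on chromosome 3 and 20% on chromosome 1. Over all tested genes 3.49% were lower and 3.37% higher.

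The lower genes on chromosome 10 had varied functions. SAR1A, a GTPase of vesicle budding from the ER, stood at 690, 742 and 670 CPM in control and 335, 353 and 345 in sh720 (log2 -1.02, SE 0.08, adjusted p 5.1e-17). SAMD8, a sphingolipid synthase relative, fell by 0.90, CAMK2G, a calmodulin-dependent kinase, by 0.82, POLR3A, the large subunit of RNA polymerase III, by 0.79, and KCNMA1, a potassium channel, by 0.77. DNAJC12, a cochaperone, was called at -1.27 and lost the call without control library 1 or 3 or sh720 library 1 or 2 (adjusted p up to 0.131). The 2 genes higher were DDIT4, an ATF4 target, and LRMDA (0.68). On chromosome 3 they included GNL3, a nucleolar GTPase that went from 188 ± 7.31 to 101 ± 4.82 CPM (log2 -0.89, adjusted p 2.84e-08), and CYB561D2, a membrane cytochrome (-0.94, adjusted p 0.00151).

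**Figure D4:**
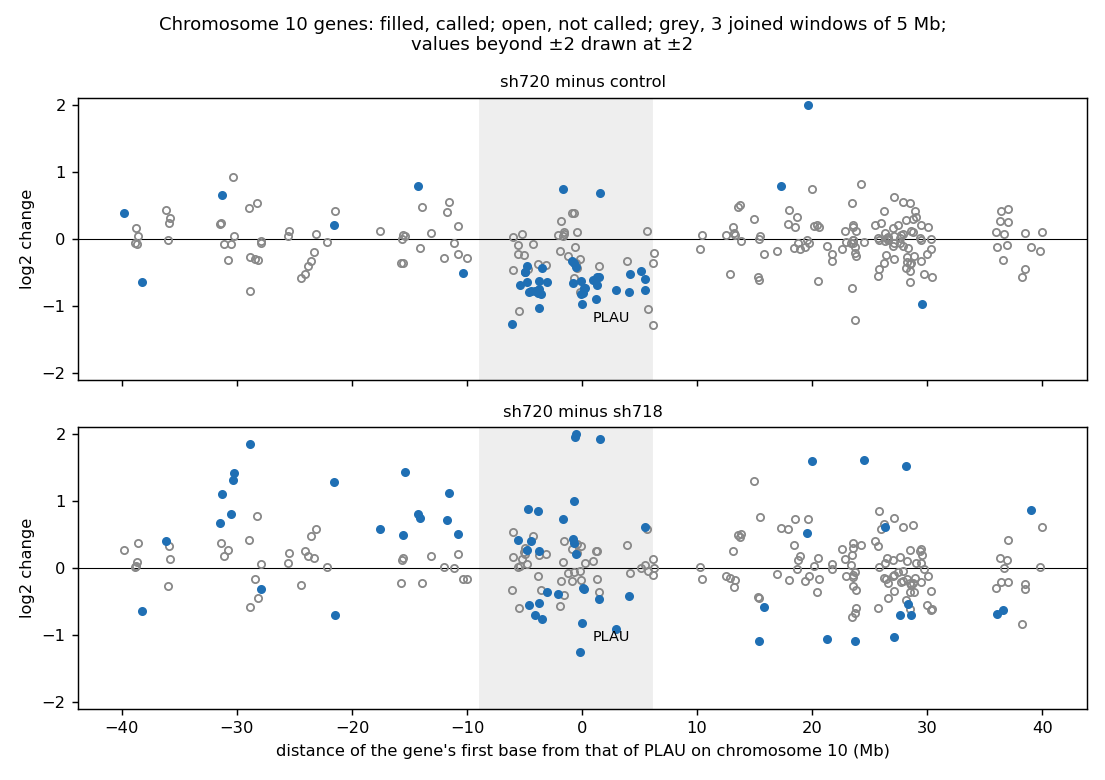
Each point is a tested gene within 40 Mb of PLAU on chromosome 10, placed by the distance of its first base from that of PLAU (horizontal, Mb), with its log2 change of sh720 minus control in the upper panel and sh720 minus sh718 in the lower one; filled points were called and grey marks the 3 joined windows. The grey region has a median of -0.48 in the upper panel and 0.08 in the lower.

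The same stretches lay low in sh718 against control, with medians of -0.53 on chromosome 10 and -0.39 on chromosome 3. Because the control libraries are shared, a lower level in both knockdown lines and a higher level in the control line cannot be told apart. Between sh720 and sh718, which does not involve control, the medians were 0.08 and 0.03. On chromosome 3, 10 of 118 genes were lower and 12 higher in sh720 than in sh718. On chromosome 10, 13 of 70 were lower and 15 higher. Over all tested genes 12.2% were lower and 12.8% higher than in sh718. PLAU (-0.83, SE 0.10, adjusted p 2.69e-10), KCNMA1 (-0.90), COL13A1 (-0.71) and HK1 (-0.54) were among the chromosome 10 genes lower than in sh718 as well. TSPAN15, a tetraspanin, was lower than control (-0.78) and higher than sh718 (0.40). With both stretches left out, a choice made after seeing the data, 321 genes were higher and 269 lower.

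Against sh718, 2394 of the 9591 genes were called (25%), 1224 higher in sh720 (12.8%) and 1170 lower (12.2%). Of the 658 genes called against control, 371 were also called against sh718 in the same direction, 199 higher (2.07% of tested genes) and 172 lower (1.79%). A further 37 were called against sh718 in the other direction, and 250 were not called.

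The ATF4 list was among those that set sh720 apart from the other hairpin. Of its 34 tested members 26 were higher and 2 lower in sh720 than in sh718 (12.8% and 12.2% of all tested genes were), and 20 were higher than both lines. TRIB3 differed by a log2 value of 1.93 (SE 0.09, adjusted p 1.81e-26), with sh718 at 154, 240 and 206 CPM, all below the control libraries. STC2 differed by 1.03 (SE 0.08, adjusted p 2.1e-17) and GDF15 by 1.03 (SE 0.09, adjusted p 5.6e-14), the latter with sh718 between the other lines. PSAT1, which was not called against control, was higher in sh720 than in sh718 by 1.40 (adjusted p 1.7e-10). GIP differed by 0.78 (SE 0.17, adjusted p 0.000258), with sh718 at 40.3, 42.4 and 40.4 CPM.

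Of the lists lower in sh720, 15 of 26 ER chaperone genes and 11 of 21 heat shock chaperone genes were lower than in sh718. In each list 6 were lower than in both lines. The sh718 line itself lay above control in these lists, with medians of 0.14 for ER chaperones and 0.24 for heat shock chaperones. Over all tested genes 12.2% were lower than in sh718 and 1.79% lower than in both lines. INSIG1 differed from sh718 by -1.90 (SE 0.28, adjusted p 1.5e-07). SCD5 (0.00), SPTLC3 (-0.09), RXRA (0.10) and RBP4 (0.73, adjusted p 0.119) were not called between the hairpin lines. A missed threshold does not show that the lines act alike: the 95% interval of the difference ran from -0.37 to 0.19 for SPTLC3, from -0.35 to 0.54 for RXRA and from -0.47 to 0.46 for SCD5.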

How the data were processed

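RNA of PC3-Luc lines was sequenced as 75 bp single reads, on a NovaSeq6000. The authors deposited 1 table of raw counts per gene, unnormalized, with 3 numbered columns for each of the 3 lines, and 0 columns were left unused. Reads were trimmed with Trim Galore and GRCh38 was used, per the submitters' processing notes. The aligner, counter, annotation and strand setting were not stated in the labels or notes used here.

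All genes with at least 40 counts over the control and sh720 libraries were tested with edgeR 4.0.16 (R 4.3.3): TMM factors, 1 quasi-likelihood fit over all 9 libraries, Benjamini-Hochberg adjustment over 9591 genes and a threshold of 0.05. All 3 lines share 1 estimate of the spread. The SE is the log2 change divided by the root of the test's F, and the 95% interval is 1.96 SE on either side. Totals were 897752 to 1108960 counts per library in the comparison. In simulated data with 9591 genes for sh720 against control, the test recovered 18% of genes changed by 0.5 on the log2 scale, 72% at 1 and 90% at 1.5, with 7 false calls. Positions come from GENCODE release 29 (21258 of 21726 genes) and promoters from RefSeq. Counting intervals and floors of 3 counts cover counting error only.

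The members, gene lists and tests were chosen with earlier results of these data known. Named genes were the 5 markers, the 12 highest and 12 lowest called genes by the interval bound nearest 0, the 6 per direction that were also called against sh718, up to 4 called members per list and direction, up to 4 per chromosome stretch, and the 5 called genes per direction with the highest level. Not every gene named by that rule is described, some genes are not reported here, and other genes named with values were chosen after these were seen. Alternatives were DESeq2 1.42.0, other scalings and count minimums, a fit of 6 libraries, a replicate block, and leaving out each library.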

Additional observations from a re-analysis of the deposited data

Results flagged for a closer look

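Of the 9591 tested genes, 93 were called against control in both hairpin lines but in opposite directions, 43 higher and 50 lower in sh720, and all 93 were also called between the lines by edgeR's quasi-likelihood test. The 22 given here are those among the genes named by the rule, less any not reported. The values below are log2 differences of sh720 minus sh718. Both lines are compared with the same control libraries, and the difference between the lines does not use these. The genes were picked for opposite changes, however. A call between the lines therefore follows almost by construction and is no separate support.

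Among genes higher than control in sh720 and lower in sh718 were the stress genes TRIB3 (1.93), CARS1 (1.16) and MTHFD2 (1.26), the collagenase genes MMP1 (3.10) and MMP13 (3.42), the keratin gene KRT7 (3.31), the ectonucleotidase gene NT5E (1.40), the Wnt inhibitor gene DKK1 (1.28) and the LIM domain gene AJUBA (0.88). AJUBA's call against control (log2 0.45) was lost without control library 1 or 2 or sh720 library 1 or 3 (adjusted p up to 0.145) and was missed by DESeq2 (adjusted p 0.125). GAL belongs here too, with a fitted value of 7.25 that depends on the prior count because sh718 had 0 counts; the bound is at least 18.3-fold higher.

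Among genes lower than control in sh720 and higher in sh718 were the chaperone genes HSPA8 (-1.07), HSPA1A (-1.42), DNAJA1 (-1.16), HSP90B1 (-1.07) and SDF2L1 (-1.28), the secreted factor genes FGFBP1 (-2.88), IGFBP4 (-0.97), LTBP1 (-0.76) and IL1B (-3.60), the protease gene ADAM19 (-1.45), the claudin gene CLDN4 (-0.70) and the ferritin gene FTL (-0.61). Several of these calls against control were lost without a library, as given with each gene in the results or here.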

How the results depend on the processing

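DESeq2 called fewer genes: 129 higher and 176 lower than control, against 323 and 335, and 657 higher and 645 lower than sh718, against 1224 and 1170. Leaving out 1 library at a time gave 219 to 364 higher and 235 to 351 lower than control, 1011 to 1231 higher and 924 to 1157 lower than sh718, and a CTHRC1 change of -3.04 to -2.59. Same-numbered control and sh720 libraries had correlations of 0.00317, 0.0105 and -0.00651 in their deviations from the line means. Values near 0 can also arise in paired libraries whose deviations are mostly counting error, so pairing cannot be told from them. With the replicate block 329 genes were higher and 351 lower than control, 1235 higher and 1165 lower than sh718, and CTHRC1 lay at -2.87. Scaling by totals gave 1585 higher and 817 lower than sh718. A fit of the 6 control and sh720 libraries alone gave 381 higher and 368 lower than control. Over 195 called genes and 17 settings, 2973 of 3266 values kept their direction and call, 293 lost the call and 0 reversed. By gene, 63 of the 195 lost the call in at least 1 setting, and each of these lost it without some library. DESeq2 missed 39 and gave 27 no adjusted p, and such missing values are not among the 3266. Among the 27 were INSIG1, HSPA1B, SLC1A4, ROR1, GAL, IL1B, SCD5, KRT75, LCP1, NOX5 and HCLS1. Counts given for DESeq2 treat such genes as not called. In simulation at 897752 to 1108960 counts per library, 18% of 50 genes changed by 0.5 on the log2 scale were recovered. Those genes were drawn at random over all levels, and fewer genes were changed than the data had calls. In the data some smaller changes were called, such as HSP90AA1 at -0.37, so the 18% does not hold for each gene.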
